A study of Mus musculus with 8 samples.

Results

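T lineage cells that had formed from wildtype progenitors were compared with the lineage-negative cells that Tcf1-deficient progenitors gave in the same kind of culture. The comparison uses 5 of the 8 arrays of the study, 2 of wildtype T lineage cells and 3 of Tcf1-deficient lineage-negative cells, and every probeset that is assigned to exactly 1 gene (21789 probesets, 19938 genes). The other 3 arrays, of wildtype lineage-negative cells, entered the estimate of the spread and serve as a second reference. Lymphoid primed multipotent progenitors (LMPPs), early bone marrow progenitors sorted as lineage marker-negative, Sca+, kit+ and Flt3 high, were grown for 4 days on OP9-DL4, a stromal cell line that presents a Notch ligand, with Flt3L at 5 ng/ml and a cytokine that the labels spell IL1 at 1 ng/ml.

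Each group is defined by genotype and sort gate. The T lineage cells were Tcf7+/+ and Thy1+CD25+, from 2 wildtype replicates. The deficient cells were Tcf7-/- and Mac1-Gr1-Thy1-CD25-, from 3 mice, and the wildtype lineage-negative cells were Tcf7+/+, passed the same negative gate and also came from 3 mice. Tcf7 encodes Tcf1. The line had been backcrossed for about 6 generations and kept on that mixed background, and ages and sexes are not given. Total RNA (10 ng per array) was amplified before labelling. Per the design text, deficient progenitors gave no Thy1+CD25+ cells, so in this comparison genotype and gate differ together and cannot be told apart. Sorted cells were measured in bulk, and a lower level can mean fewer cells that hold an RNA or less of it per cell, which cannot be told apart either.

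T cells form when a progenitor receives Notch signals, first in the thymus and, in this model, from stroma that carries a Delta-like ligand. Notch switches on Tcf1, a DNA-binding factor of the TCF/LEF family, and with Gata3 and Bcl11b it sets up the genes of the T cell receptor (TCR), its signalling chain and its recombination enzymes. In the same steps the progenitor gives up other fates, above all those of myeloid and dendritic cells, which are held by factors such as PU.1 (Spi1), Irf8 and C/EBP alpha (Cebpa).

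Values are log2 levels per probeset, and differences are T lineage minus deficient with their standard error (SE), so that a difference of 1 is a doubling. A gene was called when the adjusted p of limma, a moderated linear model fitted across all probesets, was under 0.05. By that rule 14.7% of all genes (2924 of 19938) were called, 6.19% higher in T lineage cells (1235) and 8.47% lower (1689). Among the called genes, changes of at least 2-fold were more often falls: 121 genes (0.607%) were at least 2-fold higher and 413 (2.07%) at least 2-fold lower. Arrays of the 2 groups did not overlap for 24.3% of all genes with T lineage above (4848) and 17.4% with T lineage below (3465), and none of the called genes had overlapping arrays. The median difference over all genes was 0.05. Counted by probeset, 3081 were called (14.1%), 1302 higher (5.98%) and 1779 lower (8.16%). The number called higher became 816 without deficient replicate 1, 802 without T lineage replicate 1 and 789 without T lineage replicate 2.

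**Figure D1:**
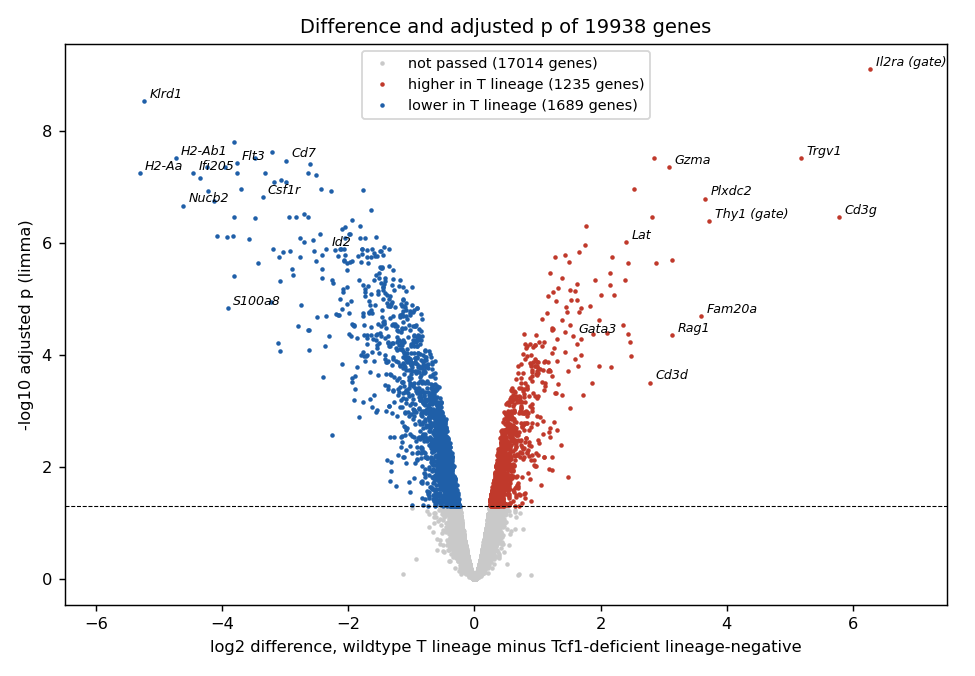
Each point is 1 gene: the x axis is the log2 difference (wildtype T lineage minus Tcf1-deficient lineage-negative), the y axis is -log10 of the limma adjusted p, and the dashed line marks an adjusted p of 0.05. The 1235 genes called higher are red and the 1689 called lower are blue; the falls at the far left (H2-Aa, Klrd1) reach differences of -5.31 and -5.24, and Cd3g and Trgv1 lie at 5.79 and 5.18 on the right.

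The gate genes behaved as the sort required and are given only as a check. Thy1 was 3.72 and Il2ra, which encodes CD25, 6.28 higher in T lineage cells. Itgam, which encodes the Mac1 alpha chain and was gated out of the deficient cells by its protein, was nevertheless lower in T lineage than in deficient cells (-1.40, SE 0.21, adjusted p = 0.001). Ly6g, detected by the Gr1 antibody, differed by -0.08. Marker sets were chosen with earlier results of these data known, so their counts describe the cells and are no test of identity. All 7 T lineage markers (Cd3g, Trgv1, Cd3d, Cd3e, Gata3, Bcl11b and Rag1) were higher in T lineage cells. The mean level of these 7 per array was 8.74 and 9.54 there against 6.29 to 6.40 in deficient cells. All 4 antigen-presenting markers (H2-Aa, H2-Ab1, H2-Eb1 and Cd74) and 5 of 6 myeloid markers were lower, so the lineage-negative cells held RNA of genes that mark antigen-presenting and myeloid cells. Their mean levels per array were 10.34 to 10.48 in deficient and 6.03 to 6.25 in T lineage cells for the antigen-presenting markers, and 9.62 to 9.74 against 6.98 to 7.20 for the myeloid markers.

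Markers of other cells that the gates could hold were mixed. None of 3 defining B lineage markers (Cd79a, Ebf1, Pax5) and none of 4 NK markers (Klrb1c, Ncr1, Eomes, Prf1) passed, nor did Klf1 of red cells. In the wider list of 21 B lineage genes 4 were lower, 1 higher and 16 did not pass: Ly6d (-1.63, also in the dendritic cell list), the adaptor Blnk (-1.42), Cd22 (-1.19) and the receptor chain Cd79b (-0.67) were lower, and Cd72 (0.84) was higher. The shares were 19% lower against 8.47% of all genes, and 4.76% higher against 6.19%.

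The 7 defining stromal markers, a check for OP9 carryover, had mean levels per array of 6.19 to 6.22 in T lineage and 6.11 to 6.33 in deficient cells, and 6 of them did not pass. The one of them called was Sparc, a matrix protein of stromal cells. Its level was 6.66 and 6.79 on the T lineage arrays and 7.27, 7.32 and 7.20 on the deficient arrays. It was thus lower in T lineage than in deficient cells (-0.54, SE 0.09, adjusted p = 0.0021), while its difference from wildtype lineage-negative cells was -0.00. The gene lies 3.11 Mb from the targeted Tcf7 locus on chromosome 11, and the part of that position in the difference was not tested. In the wider list of 30 stromal genes 4 were lower, 1 higher and 25 did not pass, and leaving out T lineage replicate 2 gave 2 lower and 2 higher. With all arrays, 13.3% were lower against 8.47% of all genes, and 3.33% higher against 6.19%. The matrix protein Thbs1 (-1.02) was lower and the protease inhibitor Timp3 (0.96) higher. The Lox call (-0.58) was lost without T lineage replicate 2 (-0.44, adjusted p = 0.1), and that of the chemokine Cxcl12 (-0.62) when any array except deficient replicate 3 was left out (-0.71 to -0.39). The part of stromal RNA in the results was not tested.

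Among mast cell markers Cpa3, a carboxypeptidase, was higher (2.44), while Mcpt8 (0.65) and Ms4a2 (-0.65) did not pass. Cpa3 stood at 11.29 and 10.77 on the T lineage arrays and at 8.21, 8.74 and 8.83 on the deficient arrays, without overlap. Of 17 mast, erythroid and megakaryocyte genes 2 were higher, Cpa3 and the platelet integrin chain Itga2b (1.33), and 3 were lower, Car2 (-1.66), Pf4 (-0.84) and Hdc (-0.59). The shares were 11.8% higher against 6.19% of all genes, and 17.6% lower against 8.47%. The Pf4 call was lost without deficient replicate 3 (-0.81, adjusted p = 0.052), T lineage replicate 1 (-0.79, adjusted p = 0.11) or T lineage replicate 2 (-0.89, adjusted p = 0.066), and the Hdc call when any array except deficient replicate 1 or T lineage replicate 1 was left out (-0.59 to -0.35).

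The clearest gains were in the TCR complex. Of 6 measured genes of the complex and the rearranging loci, 5 were higher and 1 did not pass, with a median difference of 1.72 against 0.05 over all genes. The list names 27 genes, and Trgv1 was the only segment of a rearranging locus that was measured. Cd3g, the gamma chain of the CD3 module that carries the receptor's signal, stood at 11.52 and 10.21 on the T lineage arrays and at 4.99, 5.16 and 5.08 on the deficient arrays. Both T lineage arrays were far above every deficient array. The difference was 5.79 (SE 0.27, adjusted p = 3.4e-07), which is 55.2-fold.

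Trgv1, a variable segment of the gamma chain locus, stood at 12.09 and 11.77 in T lineage cells and at 6.86, 6.55 and 6.85 in deficient cells (difference 5.18, SE 0.16, adjusted p = 3e-08). Cd3d, the CD3 delta chain, stood at 8.94 and 7.26 against 5.24, 5.34 and 5.36 (2.78, SE 0.35, adjusted p = 0.00031). For both genes the groups were clearly apart, but the T lineage arrays differed between themselves by more for Cd3d than its deficient arrays did. Cd3e, the epsilon chain, was modestly higher, at 7.93 and 7.32 against 6.77, 7.15 and 6.96 (0.67, SE 0.18, adjusted p = 0.031). That call was lost without T lineage replicate 1 (0.37, adjusted p = 0.28), without deficient replicate 1 (0.57, adjusted p = 0.1) and without deficient replicate 3 (0.67, adjusted p = 0.068). Cd247, the zeta chain, was 0.50 higher, and its call was lost without T lineage replicate 1 (0.28, adjusted p = 0.13) and without deficient replicate 1 (0.46, adjusted p = 0.053), so that without either of those arrays 3 genes of the list were called. The number was also 3 when all probesets were tested. It was 3 as well without the dimmest 40% of probesets, a filter that drops Cd3g and Cd3d. Ptcra, the surrogate alpha chain of the pre-TCR, did not pass, at 7.14 and 6.97 against 7.09, 7.08 and 7.13.

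Cd3g and Cd3d lie next to each other on chromosome 9 and are read in opposite directions from start sites 1355 bases apart. Because these neighbours were among the strongest rises, and the class II genes H2-Aa and H2-Eb1 were far lower, the 250 bases before each start site are shown, 5′ to 3′ on the gene's strand (RefSeq, GRCm38.p6). In the CD3 pair, capitals mark the TCF/LEF core CTTTGA and the E box CANNTG, the letters bound by E proteins, on either strand. In the MHC class II pair, capitals mark ATTGG, the core of the Y box, on either strand.
Cd3g, chr9:44980432-44980681, minus strand: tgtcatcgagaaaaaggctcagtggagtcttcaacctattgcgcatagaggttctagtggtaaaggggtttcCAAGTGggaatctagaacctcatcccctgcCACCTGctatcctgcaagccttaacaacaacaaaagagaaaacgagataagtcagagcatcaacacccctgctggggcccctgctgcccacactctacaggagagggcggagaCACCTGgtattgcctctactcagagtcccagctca
Cd3d, chr9:44981536-44981785, plus strand: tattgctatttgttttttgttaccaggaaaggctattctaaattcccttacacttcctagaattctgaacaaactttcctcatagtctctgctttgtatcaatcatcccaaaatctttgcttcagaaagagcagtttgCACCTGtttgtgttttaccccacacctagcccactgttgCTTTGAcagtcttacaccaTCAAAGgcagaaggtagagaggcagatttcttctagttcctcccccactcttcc
H2-Aa, chr17:34287824-34288073, minus strand: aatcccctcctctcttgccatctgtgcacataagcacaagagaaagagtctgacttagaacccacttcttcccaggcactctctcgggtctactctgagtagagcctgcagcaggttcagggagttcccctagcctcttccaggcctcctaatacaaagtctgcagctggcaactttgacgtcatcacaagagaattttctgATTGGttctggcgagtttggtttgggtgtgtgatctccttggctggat
H2-Eb1, chr17:34305617-34305866, plus strand: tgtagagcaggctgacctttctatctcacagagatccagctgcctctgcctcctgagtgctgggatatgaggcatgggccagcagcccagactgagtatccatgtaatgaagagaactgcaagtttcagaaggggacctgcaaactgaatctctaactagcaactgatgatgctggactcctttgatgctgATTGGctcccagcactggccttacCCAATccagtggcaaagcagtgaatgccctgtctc

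Cd3d held the TCF/LEF core at 2 places, 73 and 54 bases before its start, and an E box 112 bases before it. Cd3g held 3 E boxes and no CTTTGA in this window. H2-Aa held 1 Y box core, 48 bases before its start, and H2-Eb1 held 2, at 59 and 35 bases. H2-Aa and H2-Eb1, which were lower in T lineage cells, each held 1 CTTTGA and 2 E boxes too, uncapitalised above. Over 32851 promoter windows of the same length, 13.8% held CTTTGA, 33.8% held ATTGG and 66.2% held CANNTG on either strand. A match is a string of letters, and binding was not measured.

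The signalling chain below the receptor moved mostly upward. Of 23 measured genes, 13 were higher, 3 lower and 7 did not pass, with a median of 0.44. Lat, the membrane adaptor on which the signalling complex assembles, stood at 10.95 and 10.64 in T lineage cells and at 8.27, 8.28 and 8.62 in deficient cells (2.40, SE 0.13, adjusted p = 9.7e-07). Trat1, a transmembrane adaptor of the receptor, was 2.48 higher, the kinase Prkcq (protein kinase C theta) 2.14, the Tec-family kinase Txk 1.97 and Rasgrp1, which activates Ras, 1.31 (0.83 without T lineage replicate 1). The arrays of the 2 groups did not overlap for any of these 5, which held for every called gene. The 3 lower genes were Malt1, a protease on the route to NF-kappa B (-1.02), the Src-family kinase Fyn (-0.87) and the phosphatase Ptpn22 (-0.55). Zap70, the kinase recruited to the phosphorylated receptor, differed by -0.04 and did not pass.

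Of 11 measured recombination genes 4 were higher (36.4% against 6.19% of all genes), 1 lower (9.09% against 8.47%) and 6 did not pass. Rag1, one subunit of the recombinase that cuts antigen receptor loci, stood at 10.22 and 8.86 against 6.43, 6.26 and 6.54 (3.13, SE 0.30, adjusted p = 4.4e-05). Its partner Rag2 was higher by a smaller margin, at 8.26 and 7.45 against 6.84, 6.92 and 6.79 (1.01, SE 0.18, adjusted p = 0.0032), and the 2 groups were apart for both genes. Without T lineage replicate 1 the Rag2 difference was 0.60. Xrcc5, the Ku80 end-joining protein, was 1.66 higher, and the ligase Lig4 0.67 higher, though the Lig4 call was lost without T lineage replicate 1 (0.37, adjusted p = 0.12). Xrcc4, the partner of Lig4, was lower (-0.47), and 2 genes of the list were lower without T lineage replicate 1. Dntt, the polymerase that adds bases at the joints, was the most divided gene of this list, at 10.57 on one T lineage array and 8.44 on the other against 9.57, 9.81 and 9.76 in deficient cells, and did not pass (-0.21, adjusted p = 0.81).

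T lineage transcription factors shifted less than the receptor genes. Of 27 measured, 9 were higher, 3 lower and 15 did not pass, and without T lineage replicate 1, 5 were higher, while without deficient replicate 1, 5 were lower. Gata3, a zinc finger factor needed for T lineage specification, stood at 8.98 and 8.70 against 7.06, 7.34 and 7.41 (1.57, SE 0.15, adjusted p = 4.5e-05). Ets1 was 1.44 higher, Tox, an HMG-box factor, 1.27, and the Ikaros-family factor Ikzf2 0.82. Bcl11b, which seals T lineage commitment, was 0.44 higher, at 7.12 and 7.09 against 6.65, 6.75 and 6.59. Lef1, the closest relative of Tcf1 and a factor of the same family, stood at 7.83 and 7.03 against 6.68, 6.89 and 6.59 (0.71, SE 0.19, adjusted p = 0.03). Both arrays were above all deficient arrays, but the Lef1 call was lost without T lineage replicate 1 (0.31, adjusted p = 0.23, against 1.11 without T lineage replicate 2), without deficient replicate 1 (0.69, adjusted p = 0.084) and without deficient replicate 3 (0.64, adjusted p = 0.085), and with only the 2 groups compared (0.71, adjusted p = 0.066).

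The 3 lower factors were the inhibitors of E proteins Id2 and Id3 and the Ets factor Spib. Id2, which favours innate lymphoid and dendritic fates, stood at 8.22 and 7.94 in T lineage cells and at 10.48, 10.28 and 10.57 in deficient cells (-2.36, SE 0.13, adjusted p = 1.3e-06). Id3 stood at 6.29 and 6.2 against 8.28, 8.19 and 8.30 (-2.01, SE 0.14, adjusted p = 6.1e-06). No T lineage array came near a deficient array for either gene. Spib was 0.67 lower, and the E protein gene Tcf12 was 0.39 higher, a call lost without T lineage replicate 1 (0.30, adjusted p = 0.092).

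Most Notch target genes outside the sort gate did not pass. Of 15 measured, 3 were higher (20% against 6.19% of all genes), 1 lower (6.67% against 8.47%) and 11 did not pass. The median was 0.00 against deficient cells. Against wildtype lineage-negative cells it was 0.26, with 0.05 over all genes. The higher genes were Gata3 and Bcl11b, described above, and Nrarp, a feedback inhibitor of Notch, at 7.03 and 6.94 against 6.41, 6.52 and 6.57 (0.48, adjusted p = 0.008). The Nrarp call was lost without T lineage replicate 1 (0.44, adjusted p = 0.066). Ccnd1, which encodes cyclin D1, was lower (-1.48, SE 0.13, adjusted p = 3e-05). Hes1, a repressor that Notch switches on directly, stood at 7.91 and 8.16 in T lineage cells and at 7.88, 7.72 and 8.08 in deficient cells, and the groups overlapped (0.14, SE 0.12, adjusted p = 0.52). Dtx1 differed by 0.17 and Notch1 by -0.08, and neither passed.

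Receptors and processing enzymes of the pathway gave 2 higher, 3 lower and 16 not passed of 21. The shares were 9.52% higher against 6.19% of all genes, and 14.3% lower against 8.47%. Notch2 was lower (-0.66), as were the sheddase Adam17 (-0.43), which can cut the receptor, and the ubiquitin ligase Itch (-0.32). The glycosyltransferases Mfng (0.38) and Lfng (0.31) were higher. Only the Adam17 call was kept under every left-out array. Notch2 lost its call without T lineage replicate 1 (-0.62, adjusted p = 0.071), Itch without that array (-0.30, adjusted p = 0.12), T lineage replicate 2 (-0.33, adjusted p = 0.085) or deficient replicate 1 (-0.28, adjusted p = 0.068), and Mfng without T lineage replicate 2 (0.32, adjusted p = 0.084). Lfng lost its call when any array other than deficient replicate 2 was left out, with values of 0.25 to 0.35.

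**Figure D2:**
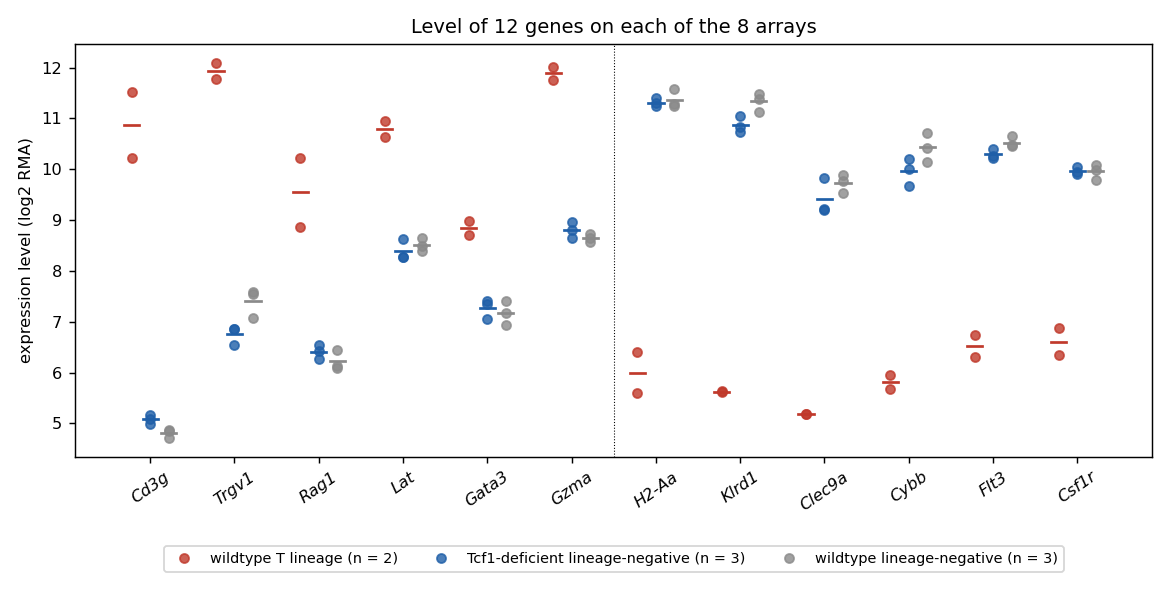
Levels (log2 RMA, y axis) of 12 genes on each of the 8 arrays: points are arrays, short bars are group means, and colours are the 2 T lineage, 3 Tcf1-deficient and 3 wildtype lineage-negative arrays. In the 6 genes on the left both T lineage arrays lie above all others and in the 6 on the right below all others; the T lineage points lie far apart for Cd3g (11.52 and 10.21) and Rag1 (10.22 and 8.86).

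Coreceptor and costimulation genes, unlike the TCR complex, were lower more often than higher. Of 20 coreceptor and costimulation genes 3 were higher, 7 lower and 10 did not pass. The inhibitory receptor Ctla4 was higher, at 9.32 and 8.15 against 6.54, 6.55 and 6.62 (2.16, SE 0.25, adjusted p = 0.00016), as were Cd160 (2.15) and Slamf1 (0.90, or 0.52 without T lineage replicate 1). Cd7, an early lymphoid surface protein, was among the larger falls, at 7.82 and 8.10 against 10.92, 11.02 and 10.90 (-2.99, SE 0.10, adjusted p = 3.3e-08). The inhibitory receptor Btla was 2.51 lower on the log2 scale (difference -2.51). Cd44, an adhesion receptor whose protein falls as thymic progenitors mature, was lower (-1.16), as was Cd8a (-1.13), whose alpha chain dendritic cells also carry. Cd4 (-0.04), Cd5 (-0.13) and Cd28 (-0.64) did not pass.

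The largest falls were in MHC class II presentation. Of 15 measured genes 14 were lower and 1 did not pass, with a median of -1.91. H2-Aa, an alpha chain of the class II molecule, stood at 5.60 and 6.40 in T lineage cells and at 11.40, 11.24 and 11.30 in deficient cells (-5.31, SE 0.19, adjusted p = 5.6e-08), a 39.7-fold lower level. Its beta chain partner H2-Ab1 stood at 6.10 and 6.65 against 11.21, 11.04 and 11.09 (-4.74, SE 0.15, adjusted p = 3e-08). H2-Eb1 stood at 6.60 and 6.62 against 9.90, 9.78 and 9.69 (-3.18). In each of these genes all deficient arrays lay close together and far above both T lineage arrays.

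The genes that load and regulate class II molecules went the same way. The invariant chain Cd74 was lower (-3.82), as were cathepsin S (Ctss, -3.81), which trims the invariant chain, the peptide exchange subunit H2-DMa (-1.91) and the costimulatory ligand Cd86 (-2.75). Ciita, the coactivator that switches on class II genes, stood at 6.88 and 6.72 against 8.11, 7.79 and 7.92 (-1.13, SE 0.14, adjusted p = 0.0003). H2-Eb2 was the member that did not pass (0.05).

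Dendritic cell genes were lower in 20 of 25 cases and 5 did not pass, with a median of -1.58. Clec9a, a receptor of cross-presenting dendritic cells, stood at 5.19 on both T lineage arrays and at 9.82, 9.19 and 9.22 on the deficient arrays (-4.22, SE 0.17, adjusted p = 1.2e-07). Siglech, a lectin of plasmacytoid dendritic cells, was lower (-3.48), as were Itgax, the CD11c integrin chain (-3.21), the chemokine receptor Xcr1 (-2.35) and Tcf4, the E protein that directs the plasmacytoid fate (-1.58). Flt3, the receptor for the ligand added to the cultures and a gene by which the starting cells were sorted, stood at 6.30 and 6.75 against 10.40, 10.23 and 10.26 (-3.77, SE 0.13, adjusted p = 3.7e-08). Genes of both conventional and plasmacytoid cells were thus higher in the deficient lineage-negative cells than in T lineage cells. Against wildtype lineage-negative cells 22 of the 25 were lower in T lineage cells too. Between the 2 lineage-negative groups the median was -0.20 (deficient minus wildtype), and 0 of these genes were called. Batf3 (-0.21), Zbtb46 (-0.09), Cd209a (-0.10), Relb (0.01) and Clec10a (-0.44) did not pass.

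Myeloid transcription factors gave 8 lower, 2 higher and 9 not passed of 19. Irf8, which directs dendritic and monocytic fates, stood at 7.25 and 7.81 against 10.55, 10.48 and 10.36 (-2.93, SE 0.17, adjusted p = 1.4e-06). Tfec, a macrophage factor of the MiT family, was lower (-3.04), as was the zinc finger factor Zeb2 (-1.65). Spi1, which encodes PU.1 and is shut down during T lineage commitment, stood at 7.83 and 8.39 against 9.16, 9.08 and 9.40 (-1.10, SE 0.16, adjusted p = 0.0011). Cebpa, the granulocyte and monocyte factor, was lower by less (-0.78). The 2 higher genes were Cebpb (0.43) and Gfi1 (0.38); neither was called without T lineage replicate 1 (Cebpb 0.48, adjusted p = 0.09; Gfi1 0.27, adjusted p = 0.16) or without deficient replicate 1 (Cebpb 0.35, adjusted p = 0.11; Gfi1 0.35, adjusted p = 0.052). Cebpb was not called without deficient replicate 3 (0.41, adjusted p = 0.091), wildtype lineage-negative replicate 3 (0.43, adjusted p = 0.054) or T lineage replicate 2 (0.38, adjusted p = 0.18) either.

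Effector proteins of myeloid cells were lower in part. Of 19 granule and secreted proteins 10 were lower and 9 did not pass. S100a8, a calcium-binding protein of neutrophils and monocytes, stood at 5.76 and 5.35 against 9.47, 9.56 and 9.37 (-3.91, SE 0.32, adjusted p = 1.4e-05), and its partner S100a9 was lower too (-3.11). Lysozyme (Lyz2, -3.22), the progenitor gene Ms4a3 (-3.08) and neutrophil elastase (Elane, -1.42) were lower. Myeloperoxidase (Mpo) stood at 10.69 and 11.54 against 11.30, 11.71 and 11.99 and did not pass (-0.55, adjusted p = 0.195). The late granule genes Ltf (0.19), Camp (0.01) and Lcn2 (-0.16) did not pass either.

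Of 20 phagocyte oxidase and lysosomal protease genes 14 were lower. Cybb, the catalytic subunit of the oxidase, stood at 5.69 and 5.96 against 10.20, 9.66 and 10.00 (-4.14, SE 0.18, adjusted p = 1.8e-07), and cathepsin H (Ctsh) at 5.62 and 5.80 against 10.26, 9.72 and 9.87 (-4.24). Both groups were separated by several log2 units. The asparagine protease Lgmn (-2.71) and the oxidase subunit Ncf1 (-1.14) were lower too, whereas Cyba (-0.29) and Rac2 (0.03) did not pass. Ctsd, cathepsin D, was the 1 higher gene (0.45), a call lost without deficient replicate 1 (0.42, adjusted p = 0.088), deficient replicate 2 (0.41, adjusted p = 0.077) or T lineage replicate 1 (0.25, adjusted p = 0.27).

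Sensors of microbes and adaptors of activating receptors were lower in part. Of 32 pattern recognition receptors 18 were lower, 2 higher and 12 did not pass. Ly86 (MD-1) and its partner Cd180, which form a receptor complex related to Tlr4, were lower by differences of -3.07 and -1.94, as were Tlr3 (-2.0), Tlr7 (-1.89) and Unc93b1 (-1.45), which carries such receptors to endosomes. The 2 higher genes were the lectins Clec4e and Clec4d. Clec4e stood at 9.39 and 9.20 against 7.72, 7.82 and 8.02 (1.45, SE 0.12, adjusted p = 1.4e-05), against the direction of most of its list. The Clec4d call (0.59) was lost without T lineage replicate 2 (0.45, adjusted p = 0.13). Of 19 Fc receptor and ITAM adaptor genes 8 were lower and 11 did not pass. Lower were Cd300a (-2.60), Cd33 (-1.98), Pirb (-1.74) and Tyrobp (-1.03), among others, while Fcer1g (-0.24) did not pass.

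**Figure D3:**
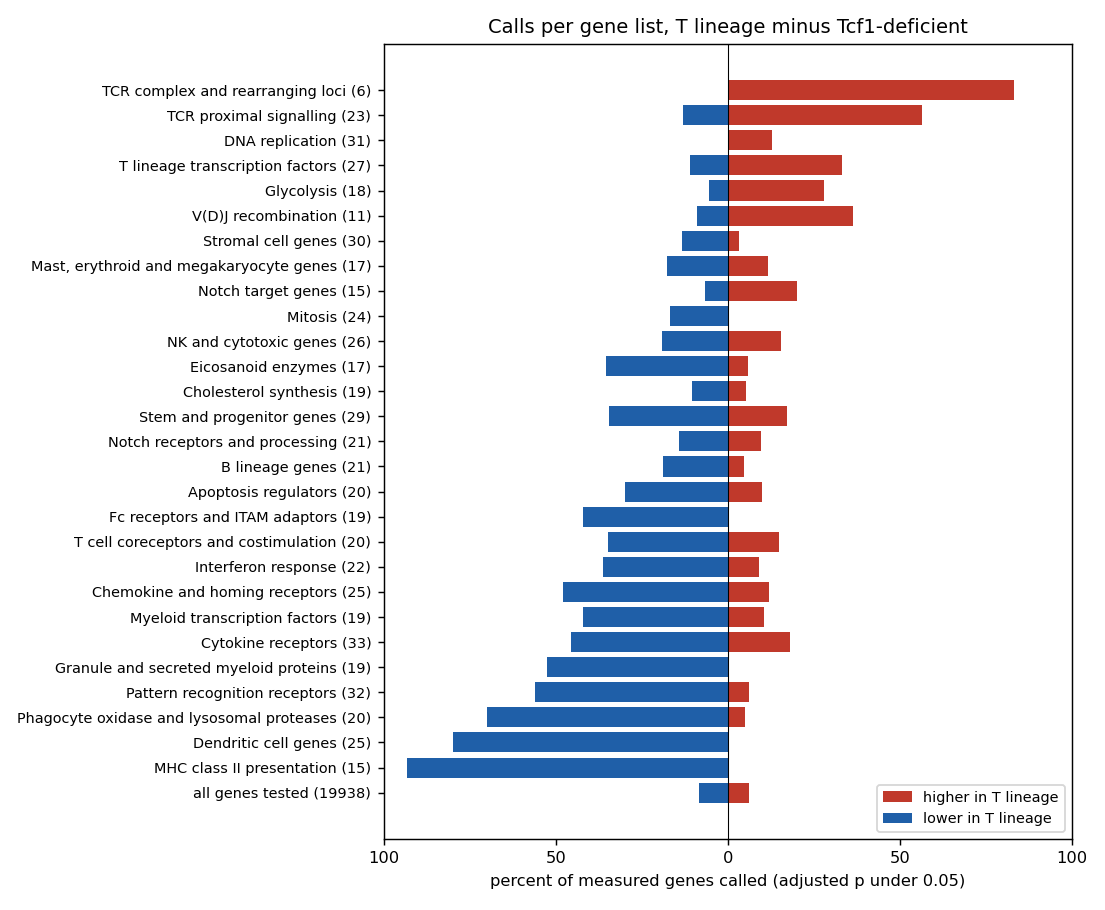
Share of the measured genes of each of 28 lists called higher (red, to the right) or lower (blue, to the left) in wildtype T lineage than in Tcf1-deficient lineage-negative cells, in percent on the x axis, ordered by median difference, with the number of measured genes in brackets and all 19938 genes at the bottom (6.19% higher, 8.47% lower). The TCR complex list, with 6 of its 27 genes measured, has 83.3% higher and none lower, and MHC class II presentation 93.3% lower and none higher.

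Cytokine receptors were lower more often than higher. Of 33 measured genes 15 were lower, 6 higher and 12 did not pass, and without T lineage replicate 1, 3 were higher. Besides Flt3, the falls were largest for Csf1r, the macrophage growth factor receptor, at 6.34 and 6.88 against 9.95, 9.91 and 10.05 (-3.36, SE 0.14, adjusted p = 1.5e-07), and for Csf2rb (-2.42) and Csf2rb2 (-2.17), beta chains used by several myeloid cytokines, close copies of each other whose probesets may share signal. Type I interferon receptor chains were lower too (Ifnar1 -0.86, Ifnar2 -1.12). Il17rb, a receptor for interleukin-25, stood at 10.00 and 9.46 against 8.0, 7.93 and 7.78 (1.83, SE 0.15, adjusted p = 1.3e-05). Il7r, whose product early T cells need to survive, stood at 9.42 and 8.66 against 9.85, 9.57 and 9.45 and did not pass (-0.58, adjusted p = 0.09), but it was called lower without T lineage replicate 1 (-0.96, adjusted p = 0.0078). Il2rb, the beta chain that pairs with CD25, was 0.43 higher, a call lost without T lineage replicate 1 (0.24, adjusted p = 0.2), deficient replicate 1 (0.44, adjusted p = 0.052) or deficient replicate 3 (0.43, adjusted p = 0.054).

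Genes of stem and progenitor cells split. Of 29 measured, 10 were lower, 5 higher and 14 did not pass, and without T lineage replicate 1, 3 were higher. The adaptor Lmo2 stood at 7.73 and 8.56 against 9.89, 9.83 and 10.00 (-1.76, SE 0.19, adjusted p = 0.0001). Cd34 (-1.51), Meis1 (-1.15) and Bcl11a (-1.11, or -0.71 without T lineage replicate 1) were lower. Mycn (1.03), Lyl1 (0.62) and Erg (0.56), all transcription factor genes of early progenitors, were higher. Kit, the stem cell factor receptor used to sort the starting cells, stood at 9.97 and 10.20 against 9.65, 9.92 and 10.01 and did not pass (0.23, adjusted p = 0.26).

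Cytotoxic and natural killer (NK) genes divided into opposite groups. Of 26 measured, 4 were higher (15.4% against 6.19% of all genes), 5 lower (19.2% against 8.47%) and 17 did not pass. Gzma, a granzyme of killer cell granules, averaged 11.88 on the T lineage arrays, with 11.76 on the lower of them, against 8.81, 8.96 and 8.64 (3.08, SE 0.11, adjusted p = 4.4e-08). Gzmb stood at 9.09 and 9.26 against 6.51, 6.83 and 6.61 (2.52, SE 0.10, adjusted p = 1.1e-07). The granule protein Nkg7 (0.79) and Zbtb16, which encodes PLZF (1.20), were also higher, whereas perforin (Prf1, 0.12) was not called.

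The 5 lower genes of that list encode lectin-like receptors. Klrd1 (CD94), which pairs with NKG2 chains, had the second largest fall of all genes after H2-Aa, at 5.61 and 5.64 against 11.04, 10.82 and 10.74 (-5.24, SE 0.12, adjusted p = 2.9e-09). Klrk1 (NKG2D) stood at 4.78 and 4.72 against 8.63, 8.32 and 8.38 (-3.70). Klra17 (-2.41), Klrb1f (-1.42) and Klre1 (-0.53) were lower, Klre1 not without T lineage replicate 2 (-0.48, adjusted p = 0.066). Of the NK markers given above, none passed the test between the groups.

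Homing and interferon genes were mixed. Of 25 chemokine and homing receptors 12 were lower, 3 higher and 10 did not pass, and without T lineage replicate 1, 7 were lower. Cxcr5 stood at 6.72 and 6.29 against 4.73, 5.03 and 4.87 (1.63, SE 0.13, adjusted p = 1e-05) and Ccr4 at 7.44 and 6.80 against 5.65, 5.68 and 5.56 (1.48, SE 0.17, adjusted p = 0.00019). The monocyte receptor Ccr2 was lower (-2.07), as was the integrin beta chain Itgb2 (-1.42). Ccr9, which draws progenitors to the thymus, was lower (-1.13), but not without T lineage replicate 1 (-1.04, adjusted p = 0.053). Of 22 interferon response genes 8 were lower, 2 higher and 12 did not pass, and the fall of Ifi205, a DNA sensor of the Ifi200 family, exceeded the others, at 5.19 and 5.45 against 10.05, 9.46 and 9.83 (-4.46, SE 0.16, adjusted p = 5.6e-08). Of the 2 higher genes, Isg20 (0.91) kept its call, and the RNA sensor Ddx58 (0.49) lost it without deficient replicate 1 (0.41, adjusted p = 0.067), deficient replicate 2 (0.46, adjusted p = 0.054) or T lineage replicate 1 (0.33, adjusted p = 0.19).

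Most genes of the proliferation and metabolism lists did not pass. Of 31 DNA replication genes 4 were higher (12.9% against 6.19% of all genes) and 27 did not pass. The 4 were Gins2 (0.56), Orc1 (0.51), Pola2 (0.47) and Mcm10 (0.40). Without T lineage replicate 2 the Orc1 and Mcm10 calls were lost (0.38 and 0.32). The number of replication genes called higher was 8 with a second quantile normalization and 8 without the dimmest 40% of probesets. Of 24 mitosis genes 4 were lower (16.7% against 8.47% of all genes) and 20 did not pass. The 4 were Top2a (-0.63), Kif23 (-0.61), Cenpf (-0.35) and Cenpa (-0.23). A second probeset of Top2a did not pass (-0.13). Of the 4 mitosis genes, 2 or 1 were called when any lineage-negative array except deficient replicate 2 was left out. Some of these calls were also lost when either T lineage array was left out. Of 18 glycolysis genes 5 were higher (27.8%), 1 lower (5.56%) and 12 did not pass. Without deficient replicate 1 the number higher was 1, and without deficient replicate 2 it was 2. Fewer than 5 were also higher when either T lineage array was left out. Hk1 was the largest rise (0.73), but another probeset of Hk1 had the opposite sign (-0.16) and did not pass. The lower gene was Slc2a3 (-0.56). Among apoptosis regulators 2 of 20 were higher (10% against 6.19% of all genes) and 6 lower (30% against 8.47%). Bcl2l1, which encodes the survival protein Bcl-xL, stood at 8.74 and 8.75 against 7.37, 7.51 and 7.88 (1.16, SE 0.14, adjusted p = 0.00019), and Bcl2l11, which encodes the death protein Bim, was lower (-0.79).

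Beyond the lists, the 12 largest rises held genes of several other kinds. Plxdc2, a transmembrane protein with a plexin domain, stood at 11.24 and 10.83 against 7.18, 7.36 and 7.61 (3.65, SE 0.16, adjusted p = 1.6e-07). Fam20a, a pseudokinase of the secretory pathway, stood at 10.18 and 8.75 against 5.70, 6.01 and 5.89 (3.59, SE 0.31, adjusted p = 2e-05). The aldo-keto reductase Akr1c12 (3.13), the prolyl isomerase Ppic (2.88), the secreted proteoglycan Esm1 (2.84) and Khdc1a (2.81) followed. The 12 largest falls also held Nucb2, a calcium-binding protein, at 5.77 and 6.52 against 11.05, 10.76 and 10.49 (-4.62), Mpeg1, a pore-forming protein of phagocytes (-4.35), the phospholipase-like Plbd1 (-3.96) and Hpgd, which inactivates prostaglandins (-3.93). Arrays without overlap were a condition for entering the 12 rises and 12 falls, so the separation of these genes adds no support.

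The deficient and wildtype lineage-negative cells gave nearly the same picture as references. The comparisons with each share the T lineage arrays, so their likeness is not independent evidence and only the values are set side by side. Against wildtype lineage-negative cells, 1579 genes were higher (7.92%) and 2128 lower (10.7%). Cd3g was 5.79 above deficient and 6.05 above wildtype lineage-negative cells, Rag1 3.13 and 3.32, Gata3 1.57 and 1.68, and Bcl11b 0.44 and 0.51. H2-Aa differed by -5.31 and -5.37 and Spi1 by -1.10 and -1.06. Of all genes, 0 were higher and 1 (0.00502%) lower between deficient and wildtype lineage-negative cells by limma, and that gene was Il2ra, a gene of the gate. At an unadjusted limma p under 0.05, 375 of 19938 genes were higher and 618 lower. Where nothing differs, that cutoff still passes a share of about 0.05 of genes, so these counts are not read as differences.

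A few genes had unlike values against the references. Hes1 was 0.14 above deficient and 0.75 above wildtype lineage-negative cells, and deficient minus wildtype lineage-negative was 0.61 (adjusted p = 0.198), so the difference between the references did not pass. Kit differed by 0.23 and 0.58, with 0.36 between the references. Sparc differed by -0.54 and -0.00, with 0.54 between them, and Trgv1 by 5.18 and 4.53, with -0.65 between them. S100a9 differed by -3.11 and -3.98, with -0.87 between them. None of these 5 differences between the references passed the test.

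**Figure D4:**
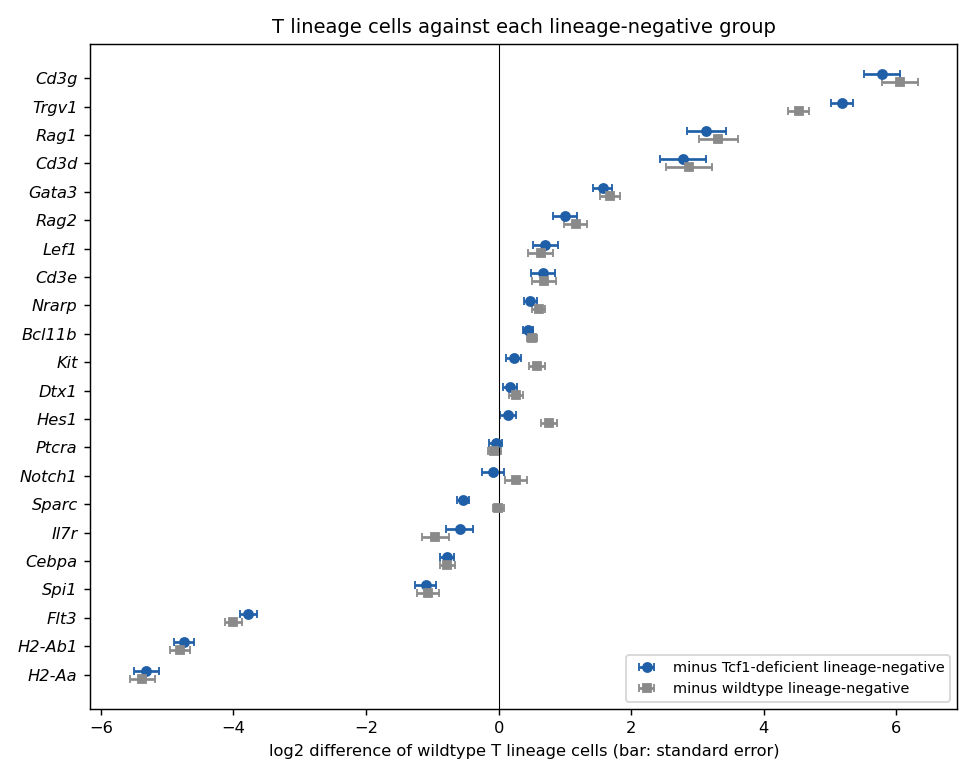
Log2 differences (x axis) of wildtype T lineage cells from Tcf1-deficient (circles) and from wildtype lineage-negative cells (squares) for 22 lineage genes, with standard errors as bars; the T lineage arrays are shared. Circles and squares lie close for most genes, and are apart for Trgv1 (5.18 and 4.53), Hes1 (0.14 and 0.75) and Sparc (-0.54 and -0.00).

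The T lineage replicates differed in T cell genes among others. Replicate 1 was above replicate 2 for all 6 measured genes of the TCR complex list, by a median of 0.53, and for 22 of 27 T lineage transcription factors, against a median of 0.02 over all genes, of which 10871 of 19938 were higher in replicate 1. The stromal list lay the same way, with 22 of 30 genes higher in replicate 1 and a median of 0.16, against a median of 0.10 for the T lineage factors. The 5 genes with the widest gap between the replicates among the named genes that were called were Lrrc4c, Cd3d, Rag1, Fam20a and Cd3g. Lrrc4c, an adhesion protein known from synapses, ran the other way, at 6.04 on replicate 1 and 7.88 on replicate 2 against 9.47, 8.94 and 9.25 in deficient cells (-2.26, SE 0.39, adjusted p = 0.0027); without replicate 1 its difference was -1.34. The replicates also differed in sex-linked transcripts: Xist, the RNA of the inactive X chromosome, stood at 5.23 on replicate 1 and 11.49 on replicate 2, and the Y-linked Eif2s3y at 9.91 and 4.20. The deficient arrays held both kinds as well, with Xist at 11.79, 5.21 and 11.49. The part of sex in the gap between the T lineage replicates was not tested.

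**Figure D5:**
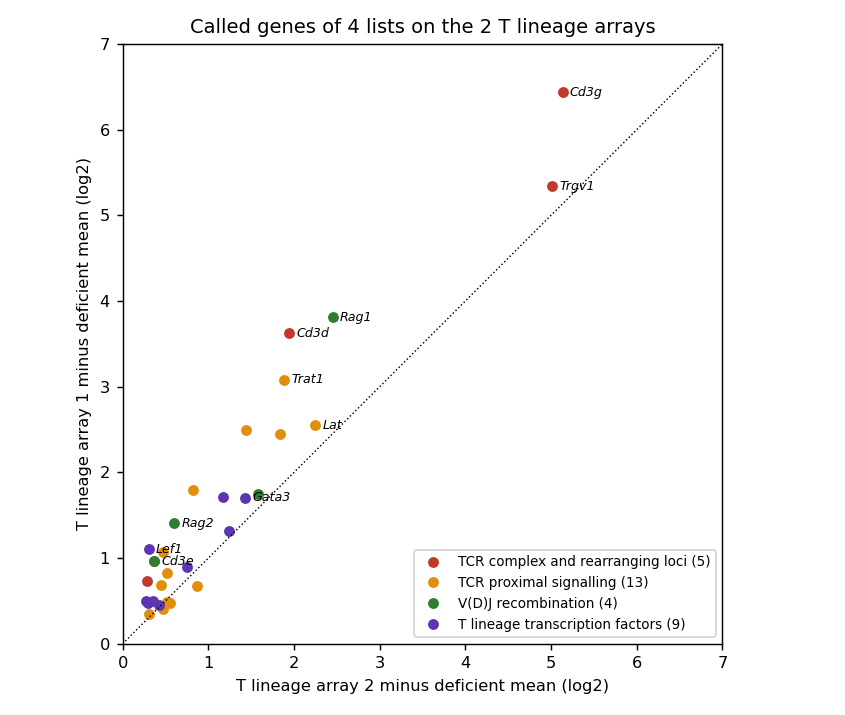
Each point is a gene called higher in T lineage cells, placed by its log2 difference from the deficient mean on T lineage replicate 2 (x axis) and replicate 1 (y axis), for 4 lists given by colour; the dotted line marks equal differences. Most points lie on or above the line, with Cd3g, Cd3d and Rag1 more than 1 log2 unit above it.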

How the data were processed

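Gene expression was measured on 8 arrays, of which 5 make the comparison. The deposited values are log2 levels per probeset, made by the authors with RMA in Partek 6.5 per the submitters' processing notes; the log2 scale was read from the values. Of 35399 probesets, 21789 with exactly 1 gene were tested, 1621 with several and 11989 with none were left out. limma 3.58.1 in R 4.3.3 (lmFit, eBayes) fitted all 8 arrays as 3 groups with 5 residual degrees of freedom, and two-sided p was corrected with the Benjamini-Hochberg method over all tested probesets (call: under 0.05). A gene with several probesets was represented by that of smallest p. The labels call the T lineage arrays replicates without naming mice, so p-values rest on the spread between these samples. That spread was pooled over the 3 groups, to which T lineage cells gave 2 of 8 arrays. For Cd3g the standard deviation was 0.92 on T lineage and 0.08 on deficient arrays, and for Klrd1 0.02 and 0.16. A pooled SE can thus understate the T lineage spread of a gene, or overstate it. Array medians were 6.85 to 6.91 and no detection call was used; precision is limited by having so few arrays. The transcript of the targeted gene is not analysed here.

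Named genes were the 12 largest rises and 12 largest falls among calls without overlap, a panel of lineage genes and the gate genes. Up to 4 called members of largest absolute difference per list were named, or 2 members where none was called. The 5 called genes with the widest gap between T lineage replicates were added. Others are named to describe their list or a marker set. The 29 lists name 678 symbols, of which 591 genes were measured. Members, lists and tests were chosen with earlier results of these data known. No set test was run. The fit was tested on simulated data. Alternatives left out each array, used 2 groups, a replicate block, other scalings, filters and weights, and a sex term.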

Additional observations from a re-analysis of the deposited data

How the results depend on the processing

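The number of probesets called (3081) stayed within 1.5 times under all 17 alternatives, from 2108 without T lineage replicate 1 to 3497 with a second quantile normalization, and the number called lower (1779) ranged from 1306 to 1886. The number called higher (1302) ranged from 789 (without T lineage replicate 2) to 1362 (without deficient replicate 2) when 1 array was left out; 1 array less leaves 4 residual degrees of freedom. Under the other alternatives the number called higher ranged from 884 with all probesets to 1714 with a second quantile normalization. Unlike the total, the number called higher did not stay within 1.5 times, as 789 lies further below 1302. Of 132 named genes 123 were called, 103 of them under every alternative run, and none of the 123 changed sign. Of 163 other called list members and miRNA genes, 99 were called under every alternative. Replicate numbers are not stated to pair samples. Deviations of same-numbered arrays correlated at -0.25 to 0.16. Deviations from means of so few arrays are tied to each other, so these values cannot show whether samples were paired. With the replicate block 2680 probesets were called. A sex term, chosen after seeing the data, gave 2870. The median difference of all probesets moved between 0.03 and 0.06. With 2 T lineage arrays, differences near the median SE of 0.09 were not detectable.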

Other observations

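Genes of microRNAs, small RNAs that repress messages through a seed of 7 bases, were looked at after their values were seen. Of 300 measured, 8 were higher and 5 lower in T lineage than in deficient cells, 4.33% against 14.7% of all genes. The probesets report the hairpin or its host transcript, so no level of a mature miRNA was measured. The 5 genes that were called under every alternative are shown by a mature sequence of each (RefSeq, GRCm38.p6), with the seed, bases 2 to 8, in capitals. No 2 of these seeds were equal.
mmu-miR-365-3p: uAAUGCCCcuaaaaauccuuau
mmu-miR-17-5p: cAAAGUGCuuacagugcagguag
mmu-miR-18a-5p: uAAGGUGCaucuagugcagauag
mmu-miR-181b-5p: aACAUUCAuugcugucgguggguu
mmu-miR-221-3p: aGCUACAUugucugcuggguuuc

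Mir365-1 stood at 7.91 and 7.76 on the T lineage arrays and at 5.62, 6.06 and 5.52 on the deficient arrays, a log2 difference of 2.10. Mir17 and Mir18, neighbours in 1 cluster on chromosome 14, stood at 8.66 and 8.71 against 8.04, 8.14 and 8.14 and at 9.12 and 9.23 against 8.57, 8.54 and 8.62. Mir181b-2 was lower, at 7.14 and 7.26 against 7.97, 7.89 and 7.84, and so was Mir221, at 5.69 and 5.45 against 6.25, 6.06 and 6.26. In all 5 the arrays of the 2 groups did not overlap, which held for every called gene. Mir363 was 1.49 higher, but not without T lineage replicate 1 (1.13, limma adjusted p = 0.13).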
